A study of Sus scrofa with 8 samples.

Results

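In 1 of 8 pig heart libraries, the second of lowland Yorkshire pigs (YL2), 59 genes for transporters and their partners stood high. The ratio of YL2 to the highest other library ran from 5.66 upward over these genes, with a median of 160. They include *SLC5A2*, the sodium-glucose cotransporter of the kidney's proximal tubule, *FXYD2*, the kidney subunit of the sodium pump, *LRP2*, the endocytic receptor megalin, and *AQP2*, the water channel of the collecting duct. The genes were chosen by their measured values. A gene was taken if YL2 held at least 10 FPKM (fragments per kilobase of transcript, relative to all fragments mapped in the library) and at least 5 times the highest value of the other 7 libraries. Its symbol also had to begin with SLC, AQP, ABC, ATP6V, CLC or FXYD, or be *LRP2*, *CUBN*, *AMN* or *PDZK1*, and *SLC2A1*, *SLC2A3*, *SLC2A4*, *SLC6A8* and *AQP1* were left out beforehand. The names cover 378 of the 18975 genes listed, and 59 of them met both thresholds. Of genes of any name, 468 met them, 2.47% of those listed. Since YL2 against the rest is what the rule used, its excess over the other libraries is described here and not tested.

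Tibetan pigs from the highland (TH) and the lowland (TL) and Yorkshire pigs from the highland (YH) and the lowland (YL) were compared by RNA-seq to study how the heart adapts to thin air. All samples are labelled as heart of males at 6 months of age, and they name no treatment. Each of the 4 groups has 2 libraries, and each library was made from a pool of RNA of 4 pigs, so the spread between them is between pools and not between animals. Values of a group are given in the order of its replicate numbers, and the levels of YL2 have no replicate. For YL1 and YL2, one label names the file of the TL group while title, breed and source give lowland Yorkshire pigs, and they were taken as YL.

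The nephron reclaims most of what the glomerulus filters. In the proximal tubule, sodium-driven carriers of the brush border take up sugars, amino acids, phosphate and organic acids, megalin and cubilin retrieve filtered protein, and carriers of the SLC22 family move organic anions and cations between blood and urine. Further along, the thick ascending limb takes up salt, and the collecting duct adjusts water through aquaporins and acid through a proton pump. Heart muscle depends instead on transporters for glucose, calcium, lactate and mitochondrial adenine nucleotides.

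YL2 stood apart from the other libraries, YL1 of its own group included. Estimated reads on genes ran from 15687000 to 26722000 per library, with a median of 19648500 and 21455000 in YL2. The 59 genes took 1.27% of these reads in YL2 and 0.01002% to 0.0166% in the other 7. With each other library put in the place of YL2, the same thresholds found 5 to 17 genes, and 0 of them with a symbol of these families. The summed FPKM of 10 heart muscle genes was 13460 in YL2 and 22210 to 38288 elsewhere, and 7 of the 10 had their lowest value of the 8 libraries in YL2 (6 of 10 after median-ratio scaling), against 15.9% of all genes listed. The lowest against the other libraries was *MYH6*, the atrial myosin heavy chain, at 2.60 FPKM in YL2 and 18.4 to 246 elsewhere. *ACTC1*, *MYBPC3* and *NPPA* lay within the range of the other libraries, at 1457 FPKM against 838 to 5018, 421 against 419 to 1143, and 46.3 against 23.1 to 2263. FPKM is relative to all fragments mapped in the library, so a lower value is a lower share of them. In bulk RNA, fewer cells of a type, less RNA per cell and more RNA of other genes cannot be told apart. The cause of the lower values was not tested.

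The label of a kidney-type set was set beside kidney genes that are no transporters. These lists, like the genes, were chosen with earlier results of these data known, so the counts describe them and give no independent support. The summed FPKM of 11 tubule markers was 2301 in YL2 and 1.70 to 2.58 in the others, and all 11 were at least 5 times higher in YL2 than in any other library, against 7.84% of all genes listed. Among them were *UMOD*, the urinary protein uromodulin, at 947 FPKM against at most 0.811, and *HNF4A*, a transcription factor of kidney and liver, at 48.5 FPKM against at most 0.0670. Of 9 liver markers, *TF* (42.2 FPKM) and *TTR* (14.3 FPKM) were over 5 times the highest other library in YL2, while *ALB* was at 0.924 and *FGA* and *SLC10A1* were listed at 0. Of 5 small intestine markers, *VIL1* (17.3 FPKM) and *SLC10A2* (4.07 FPKM), which kidney tubules also express, were over that ratio, and *SI* was listed at 0. The 4 markers of exocrine pancreas summed to 2.57 FPKM in YL2 against 2.54 to 9.19 elsewhere, those of lung to 0.400 against 0.0740 to 0.306 and those of the adrenal cortex to 0.527 against 0.140 to 0.477. The source of the transporter RNA in YL2 was not tested.

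**Figure D1:**
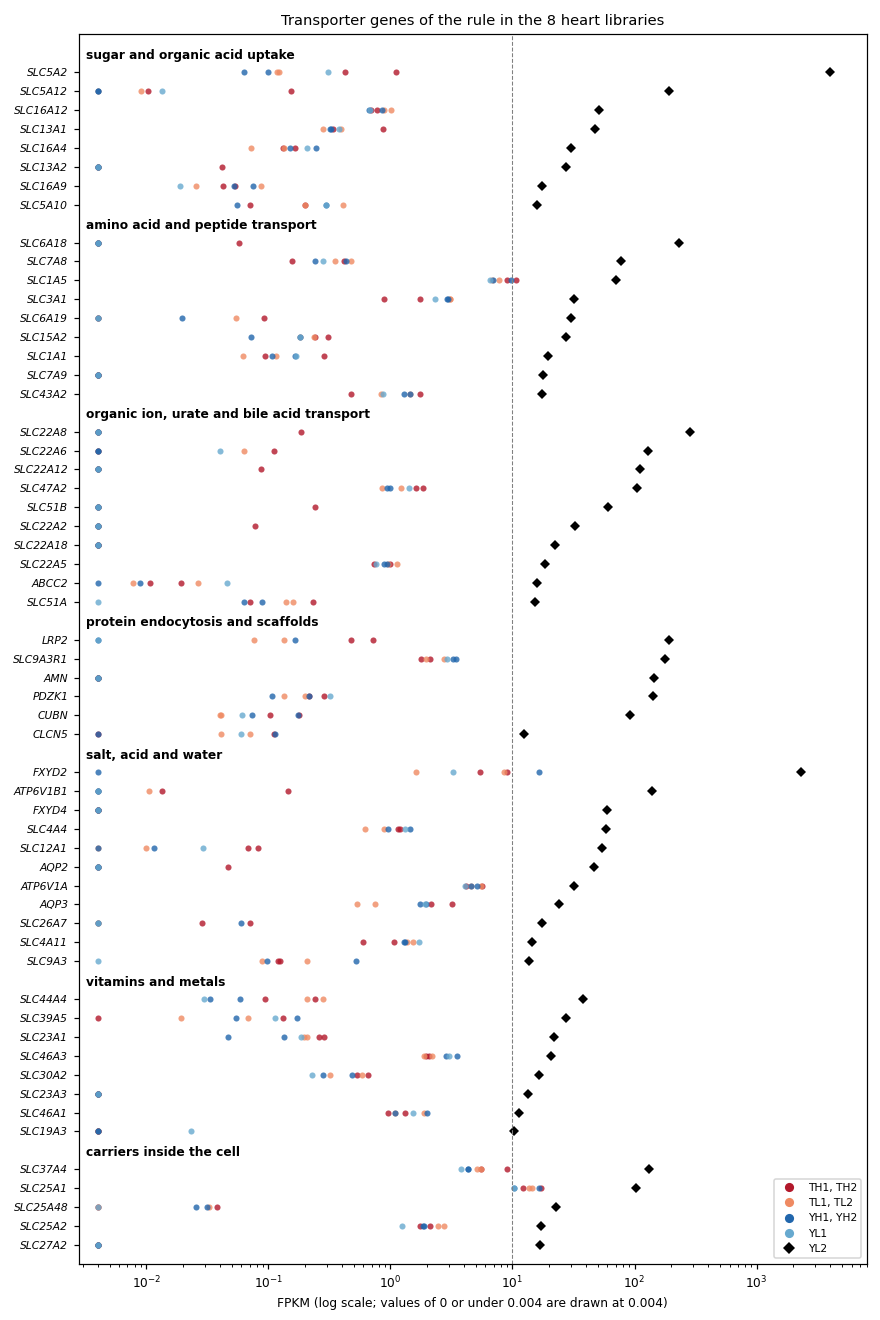
FPKM of 57 of the 59 transporter genes (log axis) in each library, sorted by role and by the YL2 value; black diamonds are YL2, dots the other 7 libraries by group, the dashed line is 10 FPKM, and values of 0 or below 0.004 are drawn at 0.004. YL2 runs from 10.3 to 4023 FPKM, and no dot of another library lies above 17.0.

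The carriers of sugars and organic acids held the highest single value. *SLC5A2* (chr3:17355774-17355942 of Sscrofa10.2) was at 1.12 (TH1), 0.422 (TH2), 0.122 (TL1), 0.118 (TL2), 0.0993 (YH1), 0.0626 (YH2), 0.310 (YL1) and 4023 FPKM (YL2). Only YL2 was high, and YL1 lay among the other groups. The gene model is 169 bp wide, a small part of the gene, so the FPKM rests on 4508 estimated reads in YL2 and 2 to 16 elsewhere, and its height among the 59 depends on this short model. *SLC5A12*, a sodium-lactate cotransporter, was at 0.0104 (TH1), 0.152 (TH2), 0 (TL1), 0.00911 (TL2), 0 (YH1), 0 (YH2), 0.0134 (YL1) and 192 FPKM (YL2), from 25615 estimated reads in YL2, the highest number of the 59. *SLC16A12*, a creatine carrier, was at 0.698 (TH1), 0.777 (TH2), 1.01 (TL1), 0.884 (TL2), 0.670 (YH1), 0.858 (YH2), 0.677 (YL1) and 51.0 FPKM (YL2). The highest of the 7 other libraries was 1.502 times the lowest for this gene, and YL1 was among them. *SLC13A1*, which takes up sulfate, was at 47.7 FPKM in YL2 and 0.283 to 0.861 elsewhere. *SLC13A2*, which takes up citrate and other dicarboxylates, was at 27.5 FPKM against at most 0.0415. The monocarboxylate family members *SLC16A4* (30.4 FPKM) and *SLC16A9* (17.6 FPKM) and the sugar carrier *SLC5A10* (15.7 FPKM) were at most 0.247, 0.0869 and 0.410 FPKM elsewhere.

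Of the amino acid and peptide carriers, *SLC6A18*, a brush-border carrier of neutral amino acids, was at 0 (TH1), 0.0570 (TH2), 0 (TL1), 0 (TL2), 0 (YH1), 0 (YH2), 0 (YL1) and 233 FPKM (YL2). TH2 was the single other library above 0, and the ratio of YL2 to it, 4095, is the largest finite one of the set. Its neighbour *SLC6A19*, the main neutral amino acid carrier of the brush border, was at 30.2 FPKM in YL2 and no more than 0.0922 elsewhere. *SLC7A8*, a basolateral exchanger of neutral amino acids, was at 0.157 (TH1), 0.413 (TH2), 0.354 (TL1), 0.478 (TL2), 0.430 (YH1), 0.242 (YH2), 0.281 (YL1) and 76.9 FPKM (YL2). *SLC1A5*, a glutamine carrier found in many tissues, was at 9.02 (TH1), 10.8 (TH2), 7.70 (TL1), 6.77 (TL2), 6.90 (YH1), 9.77 (YH2), 6.53 (YL1) and 70.1 FPKM (YL2). This gene had a clear level in every heart library, 6.53 to 10.8 FPKM outside YL2, where TH was above TL and both overlapped with YH. *SLC3A1* and *SLC7A9* encode the heavy and light chains of the cystine and dibasic amino acid carrier. Their YL2 values were 31.8 and 17.7 FPKM, but outside YL2 *SLC3A1* was at 0.892 to 3.08 FPKM while *SLC7A9* was listed at 0 in all 7. *SLC15A2*, the renal peptide carrier, was at 27.6 FPKM in YL2 and no more than 0.307 elsewhere. The glutamate carrier *SLC1A1* was at 19.6 against at most 0.286 FPKM, and *SLC43A2*, a basolateral exit route for neutral amino acids, at 17.4 against 0.474 to 1.74 FPKM.

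The organic ion, urate and bile acid carriers formed a class of 11 genes. *SLC22A8*, an organic anion carrier of the basolateral membrane, was at 0 (TH1), 0.184 (TH2), 0 (TL1), 0 (TL2), 0 (YH1), 0 (YH2), 0 (YL1) and 283 FPKM (YL2). *SLC22A6*, which has the same role, was at 0 (TH1), 0.110 (TH2), 0.0635 (TL1), 0 (TL2), 0 (YH1), 0 (YH2), 0.0400 (YL1) and 128 FPKM (YL2). *SLC22A12*, the urate carrier of the brush border, was at 0 (TH1), 0.0877 (TH2), 0 (TL1), 0 (TL2), 0 (YH1), 0 (YH2), 0 (YL1) and 111 FPKM (YL2). For all 3 genes YL2 alone was high and the libraries other than TH2, TL1 and YL1 were listed at 0. *SLC47A2*, which passes organic cations out into the urine, was at 105 FPKM in YL2 and at 0.849 to 1.86 elsewhere. *SLC51B* (60.6 FPKM) and *SLC51A* (15.4 FPKM) are the subunits of the steroid and bile acid exit carrier, and both genes of that family in the table met the rule. Their highest other values were 0.242 and 0.230 FPKM. The cation carrier *SLC22A2* was at 32.5 FPKM in YL2 and at 0.0769 FPKM or less elsewhere. *SLC22A5*, the carnitine carrier, which heart muscle also uses, was at 18.4 FPKM against 0.734 to 1.12. *SLC22A18* was at 22.3 FPKM and listed at 0 elsewhere, and *ABCC2*, an export pump for conjugates, was at 15.9 against at most 0.0459 FPKM.

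The 6 genes of protein retrieval and its scaffolds had the highest median of the role classes in YL2, 142 FPKM. *LRP2* (ENSSSCG00000015929, chr15:84748761-84759997) was at 0.720 (TH1), 0.471 (TH2), 0.0755 (TL1), 0.133 (TL2), 0 (YH1), 0.164 (YH2), 0 (YL1) and 190.3 FPKM (YL2). YL1 was listed at 0 together with YH1, so the libraries of YL were the highest and among the lowest of the 8. *AMN*, the anchor that brings cubilin to the membrane, was at 144 FPKM in YL2 and listed at 0 in the other 7. *SLC9A3R1*, a scaffold of the brush border, was at 2.11 (TH1), 1.78 (TH2), 1.94 (TL1), 2.77 (TL2), 3.23 (YH1), 3.46 (YH2), 2.93 (YL1) and 179 FPKM (YL2). It was at 1.78 FPKM or more in every library, unlike the other genes of the class, which stayed below 1 FPKM outside YL2. The scaffold *PDZK1* was at 141 FPKM in YL2 and at 0.106 to 0.317 elsewhere. *CUBN*, the receptor cubilin, was at 91.6 FPKM against 0.0405 to 0.177, and *CLCN5*, the chloride-proton exchanger of endosomes, at 12.5 against at most 0.113 FPKM.

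Salt, acid and water were handled by 12 genes of several nephron segments. *FXYD2* (ENSSSCG00000015084, chr9:50245035-50248929) was at 5.45 (TH1), 8.94 (TH2), 1.61 (TL1), 8.57 (TL2), 0 (YH1), 16.6 (YH2), 3.23 (YL1) and 2296 FPKM (YL2). Outside YL2 the values rest on 0 (YH1) to 10 (YH2) estimated reads, against 2750 in YL2, so no order of the groups is read from them. *ATP6V1B1*, the kidney and inner ear form of a proton pump subunit, was at 0.0134 (TH1), 0.143 (TH2), 0 (TL1), 0.0105 (TL2), 0 (YH1), 0 (YH2), 0 (YL1) and 138 FPKM (YL2). *FXYD4*, a sodium pump regulator of the collecting duct, was at 59.6 FPKM in YL2 and listed at 0 in the other 7. *SLC4A4*, through which bicarbonate leaves the proximal tubule, was at 58.6 FPKM against 0.613 to 1.44. *SLC12A1*, the salt carrier of the thick ascending limb that loop diuretics block, was at 53.8 against at most 0.0826 FPKM. *AQP2* was at 46.1 FPKM and *AQP3*, the water and glycerol channel on the opposite membrane of the same cells, at 24.1. The pair differed outside YL2, where *AQP2* was listed above 0 only in TH2 (0.0468 FPKM) and *AQP3* was at 0.530 to 3.20 FPKM in every library. *SLC9A3*, the sodium-proton exchanger of the brush border, was at 13.6 FPKM against at most 0.519, from 189 estimated reads in YL2, the fewest of the set. *SLC26A7*, an anion carrier, was at 17.6 against at most 0.0710 FPKM, and *SLC4A11*, of the bicarbonate carrier family, at 14.4 against 0.598 to 1.70 FPKM.

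Vitamin and metal carriers had the lowest median in YL2 of the role classes, 18.6 FPKM. *SLC44A4*, a choline-like carrier, was at 0.243 (TH1), 0.0935 (TH2), 0.205 (TL1), 0.281 (TL2), 0.0583 (YH1), 0.0334 (YH2), 0.0294 (YL1) and 37.5 FPKM (YL2). *SLC39A5*, which takes up zinc, was at 0 (TH1), 0.131 (TH2), 0.0674 (TL1), 0.0192 (TL2), 0.172 (YH1), 0.0538 (YH2), 0.113 (YL1) and 27.5 FPKM (YL2). *SLC23A1*, the vitamin C carrier of the brush border, was at 0.259 (TH1), 0.283 (TH2), 0.194 (TL1), 0.208 (TL2), 0.0469 (YH1), 0.134 (YH2), 0.185 (YL1) and 21.7 FPKM (YL2). YL1 was the lowest library for *SLC44A4* and lay within the range of the other groups for *SLC39A5* and *SLC23A1*. *SLC46A3*, of the lysosomal membrane, was at 1.97 (TH1), 2.08 (TH2), 1.87 (TL1), 2.20 (TL2), 2.86 (YH1), 3.48 (YH2), 3.03 (YL1) and 20.7 FPKM (YL2). *SLC46A1*, the folate carrier, was at 1.32 (TH1), 0.963 (TH2), 1.87 (TL1), 1.08 (TL2), 1.09 (YH1), 1.99 (YH2), 1.54 (YL1) and 11.3 FPKM (YL2). Both were measured in every library and are among the 5 genes closest to the ratio threshold. The zinc carrier *SLC30A2* was at 16.6 FPKM against at most 0.657, and *SLC19A3*, which takes up thiamine, at 10.3 against at most 0.0233 FPKM. *SLC23A3*, a relative of the vitamin C carriers, was at 13.4 FPKM and listed at 0 in the other 7.

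The 5 carriers of inner membranes overlapped most with what the heart itself makes. *SLC37A4*, the glucose 6-phosphate carrier of the endoplasmic reticulum, was at 8.99 (TH1), 5.55 (TH2), 5.51 (TL1), 5.09 (TL2), 4.30 (YH1), 4.31 (YH2), 3.78 (YL1) and 131 FPKM (YL2). *SLC25A1*, the mitochondrial citrate carrier, was at 17.0 (TH1), 12.3 (TH2), 14.5 (TL1), 13.6 (TL2), 16.6 (YH1), 10.4 (YH2), 10.3 (YL1) and 102 FPKM (YL2). Its level in TH1 was the highest of any of the 59 genes outside YL2. *SLC25A2*, of the mitochondrial ornithine carriers, was at 1.74 (TH1), 2.10 (TH2), 2.45 (TL1), 2.76 (TL2), 1.84 (YH1), 1.88 (YH2), 1.25 (YL1) and 17.1 FPKM (YL2). *SLC25A48*, of the same mitochondrial family, was at 0 (TH1), 0.0381 (TH2), 0.0329 (TL1), 0 (TL2), 0.0316 (YH1), 0.0254 (YH2), 0 (YL1) and 22.5 FPKM (YL2). The long-chain fatty acid enzyme and carrier *SLC27A2* was at 16.9 FPKM in YL2 and listed at 0 in the other 7. The remaining gene measured throughout the heart was *ATP6V1A*, the catalytic subunit of the proton pump, at 4.13 (TH1), 5.58 (TH2), 5.55 (TL1), 4.57 (TL2), 5.11 (YH1), 4.53 (YH2), 4.05 (YL1) and 32.0 FPKM (YL2).

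The set thus held genes with and without a level in the other libraries. In YL2 its median was 31.8 FPKM, with 15 genes at 100 FPKM or more, 17 from 30 to 100 and 27 below 30. Outside YL2, 41 genes stayed below 1 FPKM in all 7 libraries, and 6 of these were listed at 0 throughout (*AMN*, *FXYD4*, *SLC22A18*, *SLC7A9*, *SLC27A2* and *SLC23A3*). The other 18 genes reached 1 FPKM in at least 1 library. The median ratio of YL2 to the highest other library was 160 over all 59 genes, 422 over the 41 and 10.2 over the 18. A value listed at 0 in this table need not mean that no RNA was there, since *ATP6V1B2*, a proton pump subunit of most cells, is listed at 0 in YL2 and at no more than 0.0504 FPKM in any library.

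The thresholds cut through a continuous range. The genes just inside the ratio were *SLC46A1* (5.66), *ATP6V1A* (5.73), *SLC46A3* (5.96), *SLC25A1* (5.98) and *SLC25A2* (6.20). Just outside were *SLC25A17* (4.75), the proton pump subunit *ATP6V0D1* (4.21), *SLC2A11* (4.02), *SLC25A22* (3.93) and *SLC38A3* (3.83). By level, *SLC19A3* (10.3 FPKM), *SLC46A1* (11.3) and *CLCN5* (12.5) were the last inside, and *AQP11* (9.73), *SLC35F2* (9.67) and *SLC39A8* (9.19) the first outside. A further 42 genes of these families were at least 5 times higher in YL2 but below 10 FPKM, 24 of them at 1 FPKM or more. The left-out symbols have 7 rows in the table, and 0 of them met the thresholds. *AQP1*, a water channel of the proximal tubule and of blood vessels, was at 83.7 FPKM in YL2 and 3.60 to 25.6 elsewhere.

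Of the larger families, the rule found 7 of 18 SLC22 genes, 3 of 39 SLC25 genes, 1 of 33 ABC genes, 2 of 19 ATP6V genes and 0 of 22 SLC35 genes, which carry nucleotide sugars into the Golgi, beside 59 of 378 over all the names. Of the small families, every listed gene of SLC51 (2 genes), SLC43 and SLC47 (1 gene each) was found. The rule made these counts, so the differences between families were not tested. In the genome, 5 pairs of the 59 lie within 500000 bp of each other. *SLC6A18* (chr16:85936667-85951037) and *SLC6A19* (chr16:85952484-85969528) are 1446 bp apart, and their YL2 levels were 233 and 30.2 FPKM. *SLC22A8* (chr2:8124905-8143922) and *SLC22A6* (chr2:8152458-8160066) are 8535 bp apart, with 283 and 128 FPKM. Among the others are *SLC47A2* with *SLC5A10* and *SLC46A1* with *SLC13A2*.

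The genes were also read by segment of the nephron. Lists of 88 nephron transporters, channels, pumps and scaffolds were drawn up by segment, and 72 of these genes are in the table. Among them 35 belong to the 59, 57 were at least 5 times higher in YL2 than in any other library, against 7.84% of all genes listed, and 41 reached 10 FPKM there, against 23.7% of all genes. YL2 was the highest of the 8 libraries in 69 of the 72, against 28.5% of all genes, and the lowest in 0. As 35 of them were chosen for a high value in YL2, the counts describe the lists and give no independent support.

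**Figure D2:**
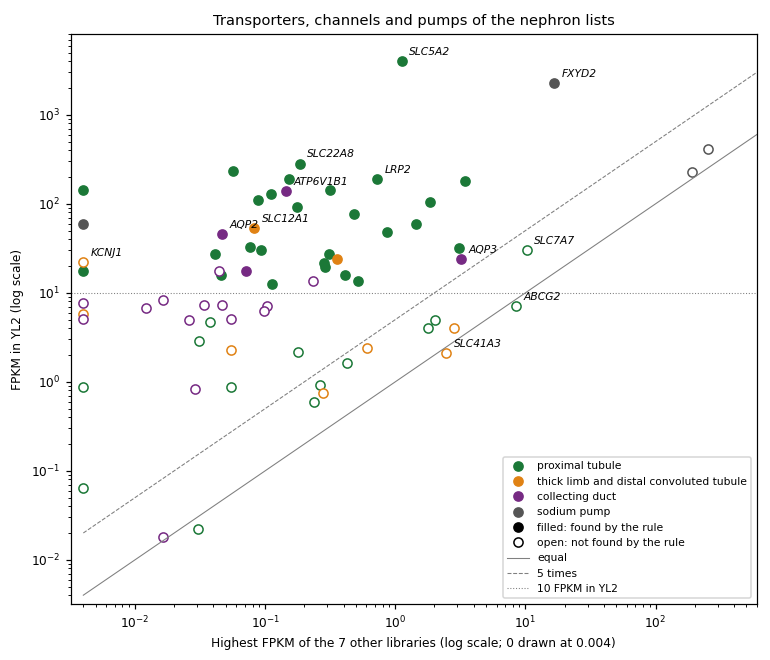
FPKM in YL2 against the highest FPKM of the 7 other libraries (both axes log, 0 drawn at 0.004) for 72 listed genes of the nephron lists, coloured by segment; filled points met the rule, and the lines mark equal values, 5 times and 10 FPKM. Of the 72, 57 lie on or above the line of 5 times, among them open points below 10 FPKM.

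All 18 listed genes of apical uptake by the proximal tubule were highest in YL2, and 17 passed 5 times. All 5 endocytosis genes and all 5 thick limb genes passed 5 times, the latter including *KCNJ1*, the potassium channel of that segment, at 22.0 FPKM in YL2 and 0 elsewhere. Of 7 principal cell genes 6 passed, including *SCNN1A*, a subunit of the epithelial sodium channel, at 13.7 FPKM against at most 0.233. Of 13 carriers of organic ions and urate 8 passed. Of 5 genes of basolateral exit 3 passed, and *SLC7A7*, the light chain of a dibasic amino acid exit carrier, did not, with 30.3 FPKM against at most 10.2. None of the 4 listed genes of the distal convoluted and connecting tubule passed, and their sum was 9.34 FPKM in YL2 against 3.59 to 4.89. The sodium-chloride cotransporter *SLC12A3* of that segment was not analysed here, and *CALB1*, a calcium-binding protein of the same cells among the tubule markers, was at 41.3 FPKM in YL2 against at most 0.0554. Differences between segments were not tested. The sodium pump subunit *ATP1B1* was highest in YL2 by less than 5 times, at 411 FPKM against at most 251.

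The intercalated cells of the collecting duct secrete acid with a proton pump built in part from kidney subunits, and all 11 listed genes of these cells passed 5 times in YL2. The ammonia channel *RHCG* was at 17.4 FPKM in YL2 and no more than 0.0444 elsewhere. The subunits found chiefly in kidney were at 138 (*ATP6V1B1*), 8.28 (*ATP6V0A4*), 7.38 (*ATP6V1G3*), 7.35 (*ATP6V1C2*) and 6.23 FPKM (*ATP6V0D2*) in YL2, and none exceeded 0.143 FPKM in another library. The subunits of most cells differed less. In YL2, 12 of them with a median of at least 1 FPKM elsewhere were at 0.894 to 7.004 times that median, with a median of 2.03, and *ATP6V1A* alone passed 5 times the highest other library. *ATP6V1F* was at 51.7 FPKM in YL2, within the 44.5 to 77.2 of the others, and *ATP6V0C* at 302 against 158 to 288.

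**Figure D3:**
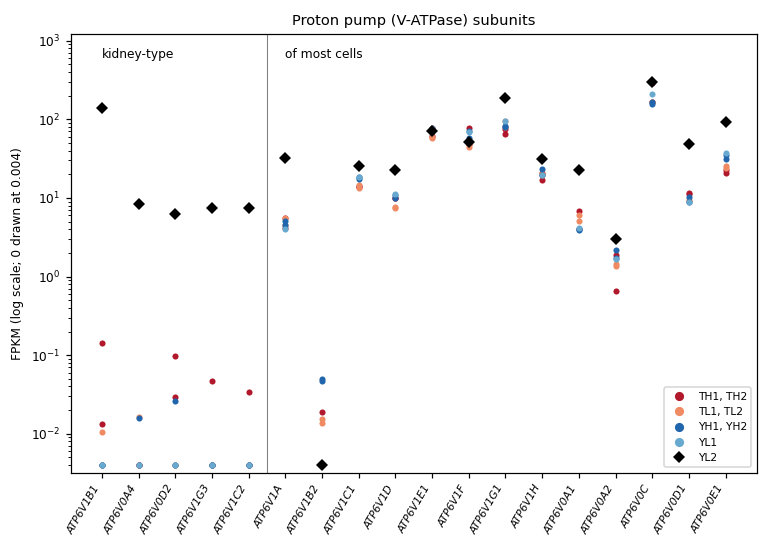
FPKM (log axis, 0 drawn at 0.004) of proton pump subunits in YL2 (black diamonds) and the other 7 libraries (dots by group), with 5 kidney-type subunits on the left and 13 subunits of most cells on the right. The kidney-type subunits lie at 6.23 to 138 FPKM in YL2 and at 0.143 or below elsewhere, whereas 12 of the 13 subunits of most cells lie at 0.894 to 7.004 times the median of the others.

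Transporters that heart muscle uses were lower, similar or higher in YL2 by gene. Of 15 such genes, 6 had their lowest value of the 8 libraries in YL2 (5 after median-ratio scaling), against 15.9% of all genes. YL2 held the highest value of 4 (6 after that scaling), against 28.5%. The rule fixed 1 of the 4 in advance, as *SLC22A5* is also one of the 59. *SLC25A4*, the adenine nucleotide carrier of muscle mitochondria, was at 2609.8 (TH1), 1661 (TH2), 1967 (TL1), 2253 (TL2), 2322 (YH1), 2474 (YH2), 3033 (YL1) and 1079 FPKM (YL2). *FXYD1*, the sodium pump regulator of muscle, was at 410.1 (TH1), 246 (TH2), 348 (TL1), 354 (TL2), 324 (YH1), 347 (YH2), 443 (YL1) and 166 FPKM (YL2). *SLC2A4*, the insulin-dependent glucose carrier, was at 70.8 (TH1), 37.8 (TH2), 55.6 (TL1), 61.8 (TL2), 59.4 (YH1), 56.9 (YH2), 53.7 (YL1) and 27.8 FPKM (YL2). In each of the 3 genes YL2 was below all 7 other libraries and YL1 was not. The creatine carrier *SLC6A8* was at 85.9 FPKM in YL2, below TH1 and above the other 6, and *SLC2A1*, the glucose carrier of most cells, was at 10.9 within 5.65 to 11.9. The fatty acid carrier *SLC27A6* was at 3.06 FPKM in YL2 and no more than 0.650 elsewhere, and *SLC6A6*, the taurine carrier, at 1.26 against at most 0.666. Median-ratio scaling moved the median of all tested genes in YL2 against the mean of the others by 0.20 on the log2 scale, from -0.02 to 0.18. The rule then found 66 genes.

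Outside YL2, the share of reads on all 59 genes was highest in YH2 (0.0166%) and TH2 (0.0163%). Gene by gene, TH2 was the highest of the 7 other libraries in 23 of the 53 genes with a value there, against 3 to 8 genes for each of the others. Of all genes with a value in the 7, TH2 was the highest in 14.7%. It listed 8 of the 59 genes at 0, against 19 to 22, while of all genes listed 14.6% were at 0 in TH2 and 13.4% to 16.2% in the others. For *SLC22A2*, *SLC51B*, *SLC22A12*, *SLC6A18*, *AQP2*, *SLC13A2* and *SLC22A8*, TH2 was the single library above 0 apart from YL2. These 7 genes had 28 estimated reads together in TH2 and 60031 in YL2, or 2144 in YL2 for each in TH2. YL1 was alone above 0 in *SLC19A3*, and the other 5 libraries in no gene.

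**Figure D4:**
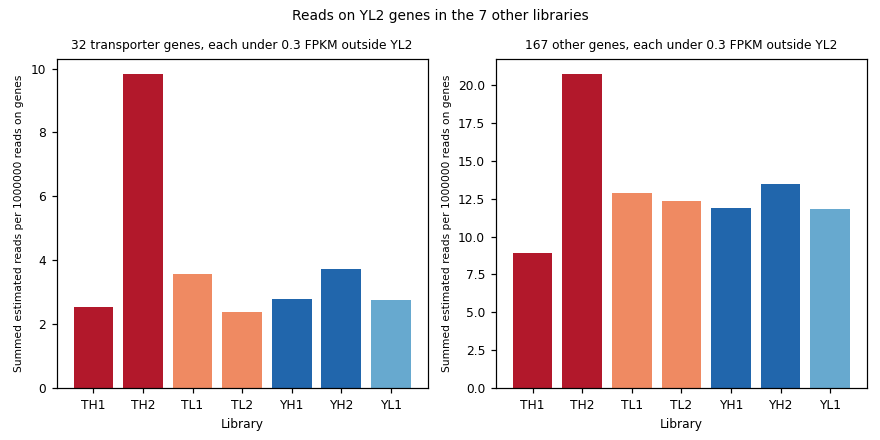
Estimated reads per 1000000 reads on genes (bars, linear axes from 0) in the 7 libraries other than YL2, summed over 32 transporter genes (left) and over 167 other genes that passed the same thresholds (right), each gene below 0.3 FPKM in all 7. TH2 is the highest bar in both, at 9.82 and 20.7.

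Summed over the 32 genes below 0.3 FPKM in all 7 libraries, TH2 held 154 estimated reads (9.82 per 1000000 reads on genes) and the others 51 to 73 (2.37 to 3.72). TH1, the other library of the group, was at 2.54. TH2 had the fewest reads on genes of the 8 libraries, 15687000. Whether these reads share a source with those in YL2 was not tested.

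Breed at the highland (TH *vs*. YH) and altitude in Tibetan pigs (TH *vs*. TL) are comparisons without YL2, but in a fit of all 8 libraries YL2 enters both the filter and the spread of each gene. Differences were tested with limma on log2(FPKM + 1) over the 11913 genes that reached 1 FPKM in 2 or more libraries. Calls needed a log2 fold change over 1 in size beside an adjusted p under 0.01. Since all 59 genes reached 1 FPKM in YL2, a gene entered if 1 more library did, which held for 18. In TH *vs*. YH, 0 of the 18 were called by limma and 0 had an unadjusted p under 0.05, against 0.0336% and 16.2% of all genes tested, and the libraries of the groups did not overlap in 8, against 52.5%. In TH *vs*. TL the counts were 0, 0 and 10, against 0.0504%, 11.3% and 48.5%. The values that chose the genes set their standard errors here, so the counts by p say nothing of breed or altitude. The counts of groups that did not overlap use no standard error, but YL2 helped to set which 18 genes were counted. *SLC5A2* entered through YL2 and TH1 alone and did not overlap in either comparison. *SLC16A12* entered through YL2 and TL1 alone and did not overlap in TH *vs*. TL. With YL2 left out of the filter, 7 and 8 of 15 genes did not overlap, against 52.7% and 48.7% of all genes tested. Over the 18 genes the median log2 difference was 0.00 in TH *vs*. YH and -0.03 in TH *vs*. TL, beside -0.03 and -0.02 over all genes tested.

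In the comparisons that contain YL2, the 59 genes had a median log2 difference of -2.27 in TL *vs*. YL and -2.34 in YH *vs*. YL. These values rest on YL2. Without it both medians were 0, and without YL1 they were -4.56 and -4.67. The mean of the YL group stands for neither of its libraries, as the summed FPKM of the 59 genes was 50.9 in YL1 and 9747 in YL2. Of the YL2 sum, *SLC5A2* with its short gene model held 4023 and *FXYD2* 2296.

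With YL2 left out, 15 of the 59 genes entered a test of 11709 genes over 7 libraries, and 0 of them were called by limma in any of the 4 comparisons, against 0.0512%, 0.111%, 0.0256% and 0% of all genes in the order of the counts that follow. An unadjusted p under 0.05 was found for 5 of the 15 in TH *vs*. YH, against 22.9% of all genes, for 2 in TH *vs*. TL, against 17.3%, for 2 in TL *vs*. YL, against 9.74%, and for 0 in YH *vs*. YL, against 5.41%. The genes that follow were chosen after their values were seen. *SLC3A1* was at 0.892 (TH1), 1.74 (TH2), 3.05 (TL1), 3.08 (TL2), 2.89 (YH1), 2.98 (YH2) and 2.34 FPKM (YL1). Both TH libraries were below all others, with a log2 difference of -0.79 (SE 0.23, adjusted p = 0.125 from limma) to YH and -0.84 (SE 0.23, adjusted p = 0.155) to TL. *AQP3* was at 3.20 (TH1), 2.16 (TH2), 0.748 (TL1), 0.530 (TL2), 1.76 (YH1), 1.94 (YH2) and 1.92 FPKM (YL1). Both TL libraries were the lowest of the 7, and TH was above TL by 1.16 (SE 0.22) with an adjusted p of 0.0931 from limma. With YL2 in the fit the standard errors of these differences were 0.92 for *SLC3A1* and 0.87 for *AQP3*, and the adjusted p in TH *vs*. TL were 0.780 and 0.665.

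**Figure D5:**
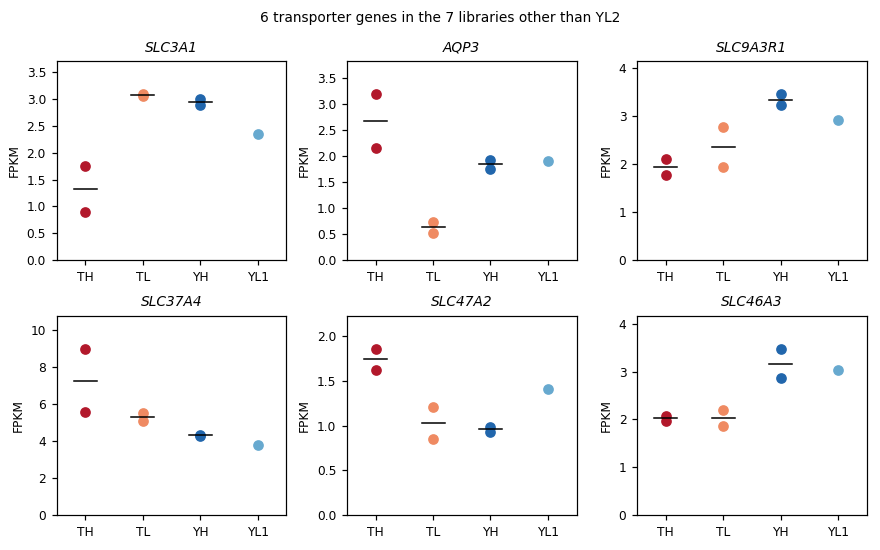
FPKM (linear axes from 0) of 6 transporter genes in the 7 libraries other than YL2, by group; dots are libraries and bars the mean of the 2 libraries of TH, TL and YH. The TH libraries of *SLC3A1* lie below all others and the TL libraries of *AQP3* below all others; 0 of the 6 genes passed the threshold.

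The other genes below an unadjusted p of 0.05 in TH *vs*. YH had smaller differences. *SLC37A4* was at 8.99 and 5.55 FPKM in the TH libraries against 4.30 and 4.31 in YH, a log2 difference of 0.61 (SE 0.24) with an adjusted p of 0.203 from limma. *SLC47A2* was at 1.63 and 1.86 FPKM against 0.934 and 0.985, and *SLC9A3R1* at 2.11 and 1.78 FPKM against 3.23 and 3.46. *SLC46A3* was at 1.97 and 2.08 FPKM in TH against 2.86 and 3.48. *SLC37A4* and *SLC47A2* were thus the higher in Tibetan and *SLC9A3R1* and *SLC46A3* in Yorkshire pigs of the highland, with adjusted p of 0.205, 0.175 and 0.209 from limma for the last 3 genes in the order *SLC47A2*, *SLC9A3R1* and *SLC46A3*. Among the other genes measured in these 7 libraries, the highest library was 1.38 times the lowest for *ATP6V1A*, 1.65 times for *SLC25A1* and *SLC1A5*, 2.21 times for *SLC25A2*, 2.85 times for *SLC4A11* and 3.68 times for *SLC43A2*.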

How the data were processed

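RNA of heart from 8 pools of 4 pigs was sequenced on an Illumina platform. Reads were mapped by the authors to the Sscrofa10.2 build with TopHat2 2.0.9 and Bowtie 0.12.5, and they computed FPKM with Cufflinks and compared groups with DESeq 1.10.1, as their methods and processing notes state. The deposited table lists FPKM for 18975 Ensembl genes in each library. A second deposited column per library is a signal, named a count by the authors but scaled by 1 factor per library. The commonest of its low values in each library was taken as the worth of 1 read. Divided by this, 99.7% to 99.8% of its low values were whole within 0.02. The division gave the estimated reads, used only for depth and traces. Intervals of counting error were not computed from them. Group means and ratios in 8 columns were not used.

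The rule was applied to the FPKM as deposited. The genes and the lists were chosen with earlier results of these data known, and the role classes were assigned after the 59 genes were known. By the rule for naming, each of the 59 is named once with its role, except 2 that are not reported here. The 3 highest of each class, *LRP2*, *FXYD2*, the genes with the smallest ratios and those highest outside YL2 get a value in every library. Genes named in the comparisons without YL2 were chosen after seeing their values. Symbols of the 59 come from the deposited table, and 77 genes without one there met the thresholds. For 6 genes of the lists, such as *ATP6V1B2*, *SLC6A6*, *SI* and *SLC10A1*, the symbol comes from a reference table of gene names.

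Tests between groups used limma 3.58.1 (R 4.3.3) on log2(FPKM + 1), with a trend, 1 term per group, all 8 libraries and Benjamini-Hochberg adjustment over 11913 genes. On this scale the change of a low gene is understated. The fit was tested on simulated data. An exact permutation test of 2 against 2 libraries cannot go below a two-sided p of 0.333. The 2 pools of a group are described as biological replicates, and p-values measure the spread between such pools. Alternatives were a pseudocount of 0.1, no filter, a mean of at least 10 FPKM, median-ratio scaling, a replicate block, an adjusted p under 0.05, the 4 libraries of a comparison alone, other thresholds of the rule and each library left out. The promoter search that had been planned was not run, as no promoter sequence was used here. Tables used pandas 2.3.3 and numpy 2.4.6 in Python 3.11.15, and plots used matplotlib 3.10.9.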

Additional observations from a re-analysis of the deposited data

How the results depend on the processing

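Without YL2 none of the excess described above is left, and there is 1 such library, so no repeat of it can be checked. The count of 59 genes became 32 at a minimum of 30 FPKM and stayed at 59 to 60 when a library other than YL2 was left out. The median ratio to the highest other library was 160 as deposited, 182 after median-ratio scaling and 160 to 161 without 1 library. With a pseudocount of 0.1 the median log2 difference of the 59 genes was 0.14 in TH *vs*. YH and 0.16 in TH *vs*. TL, from 0.03 in both, and without 1 library it was 0 to 0.07 in both. The same pseudocount moved the median from -2.27 to -3.54 in TL *vs*. YL and from -2.34 to -3.57 in YH *vs*. YL.

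Over all genes, limma called 4 in TH *vs*. YH (31 at an adjusted p under 0.05, 0 to 6 without 1 library, with 0 without TH2 and 1 without TH1). It called 6 in TH *vs*. TL (11 with only the 4 libraries compared, 12 at an adjusted p under 0.05, 1 to 13 without 1 library, with 13 without YL1 or YL2, 1 without TH1, 2 without TH2 and 3 without TL1 or TL2). It called 1 in TL *vs*. YL (2 with only the 4 libraries compared, 0 to 302 without 1 library, with 302 without YL1) and 0 in YH *vs*. YL (1 with a pseudocount of 0.1, 0 to 303 without 1 library, with 303 without YL1), where 711 genes had an unadjusted p under 0.05. A library left alone in its group is assumed to vary like the other groups. The cause of these shifts was not tested.

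The replicate numbers did not pair the libraries (correlations of their deviations from -0.08 to 0.12). With a replicate block limma called 3, 4, 1 and 0 genes in the comparisons in the order above. Of the 59 genes, 18 entered this fit and 0 were called. The planned count models (edgeR and DESeq2) and scaled reads in place of FPKM were not run. The deposited signal is scaled, and the reads taken from it are estimates.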

Other observations

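The lead of TH2 over genes below 0.3 FPKM in the 7 other libraries was also present in genes outside the symbols of the rule, some of which are channels or transporters too. Of the genes of any other name that met the same thresholds in YL2, 167 were below 0.3 FPKM in all 7 other libraries. They summed to 325 estimated reads in TH2 (20.7 per 1000000 reads on genes) and to 220 to 282 in the others (8.94 to 13.5), against 403854 in YL2. Of these genes, 102 were listed above 0 in TH2 and 60 to 77 in each of the others, and 15 were above 0 in TH2 alone of the 7, against 1 to 2. The difference between TH2 and the other libraries has no replicate, and its cause was not tested.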
